A study of Mus musculus with 18 samples.

Results

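The Ifi27 family of the mouse consists here of Ifi27, Ifi27l2a and Ifi27l2b, 3 of the 55385 genes in the deposited table, taken by gene name and followed across all 18 liver libraries. All 3 passed the filter on low counts that left 15208 genes for testing. The livers came from 6 Dp16-2xIFNRs mice, 6 Dp16 mice and 6 wild-type C57BL/6J mice, with 3 males and 3 females per genotype, aged 17.1 to 18.0 weeks, and no treatment is recorded for any of them. Dp16 mice carry an extra copy of a segment of chromosome 16 that corresponds to a large part of human chromosome 21 and serve as a model of Down syndrome. The segment includes the interferon receptor genes Ifnar1, Ifnar2, Ifngr2 and Il10rb. Dp16-2xIFNRs mice keep the duplicated segment with the dosage of those receptor genes set back to that of wild-type. Both carrier genotypes therefore share the rest of the duplicated segment. Beyond a sample number and a description code of unstated meaning, the labels do not name separate animals, so p-values measure the spread between these samples. The labels also do not give the strain background or littermate status of the carriers. The genes were selected on the measured genotype differences of these livers, which were already known, so differences between genotypes in the members are given as descriptions without a test, while differences between the sexes, which the choice did not use, were tested.

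Ifi27 and its relatives, also called the ISG12 genes, encode small hydrophobic proteins that insert into membranes, and human IFI27 has been placed at mitochondria and at the nuclear envelope. Type I interferons bind the receptor made of Ifnar1 and Ifnar2, the kinases Jak1 and Tyk2 pass the signal on to transcription factors that act with Irf9, and these switch on interferon-stimulated genes, of which human IFI27 is one of the most widely used blood markers. Human IFI27 has also been linked to export of the nuclear receptor NR4A1 from the nucleus through XPO1 and, with the ubiquitin ligase subunit SKP2, to degradation of a hepatitis C virus protein in liver cells. None of the family lies on chromosome 16.

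Total counts per library ran from 38236222 to 59923315. TMM scaling factors ran from 0.8026 in Dp16 4 to 1.338 in Dp16 5. The summed level of 8 hepatocyte markers was 84500 to 135000 CPM (counts scaled to the TMM-adjusted library size) in Dp16-2xIFNRs, 79300 to 122000 CPM in Dp16 and 85000 to 126000 CPM in wild-type livers with all 8 passing the filter, in keeping with the tissue label. In whole-liver RNA, fewer cells of a type and less RNA per cell cannot be told apart.

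The genes lie side by side on chromosome 12 (GRCm38, GENCODE M21). Ifi27 (ENSMUSG00000064215.13) occupies chr12:103434211-103440239 on the plus strand, Ifi27l2a (ENSMUSG00000079017.3) chr12:103442167-103443680 on the minus strand and Ifi27l2b (ENSMUSG00000021208.9) chr12:103450898-103457223 on the minus strand. The gaps between them are 1927 and 7217 bases, and the cluster spans 23013 bases. RefSeq, on the same build, draws Ifi27l2a from position 103433873 to 103443680, so that it overlaps Ifi27 on the opposite strand, and lists Ifi27 and Isg12 among the older names of Ifi27l2a. The libraries were strand-specific per the labels, but no source used here gives the strand setting of the counting.

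Ifi27l2a and Ifi27l2b share coding sequence, and Ifi27l2b holds that sequence in 2 copies, which is shown here because reads from it can match more than 1 place. The windows are 111 coding bases each, printed 5′ to 3′ on the minus strand from GENCODE M21 transcripts, with the longest identical run of 51 bases in capitals. They lie within 1 exon each, at chr12:103442842-103442952 for Ifi27l2a, chr12:103456368-103456478 for the first copy in Ifi27l2b and chr12:103451816-103451926 for the second.
Ifi27l2a: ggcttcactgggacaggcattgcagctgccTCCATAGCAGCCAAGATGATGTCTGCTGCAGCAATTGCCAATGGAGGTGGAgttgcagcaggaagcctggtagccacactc
Ifi27l2b, first copy: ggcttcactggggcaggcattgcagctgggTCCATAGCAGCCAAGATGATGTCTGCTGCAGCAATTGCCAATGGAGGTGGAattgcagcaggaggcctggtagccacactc
Ifi27l2b, second copy: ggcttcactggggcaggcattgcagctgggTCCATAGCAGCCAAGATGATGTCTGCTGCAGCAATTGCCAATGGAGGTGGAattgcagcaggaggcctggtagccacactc

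The copies within Ifi27l2b were identical over these 111 bases, and each matched Ifi27l2a at 106 of 111 (95.5%). The longest stretch that occurs more than once in the Ifi27l2b transcript is 140 bases, and 266 of its 1063 windows of 31 bases occur more than once. Of the 433 windows of 31 bases in Ifi27l2a, 26 also occur in Ifi27l2b. Ifi27 shares no window of 31 bases with either relative, and none of the 3 genes shares one with another gene of the annotation. No source used here tells how reads that match more than 1 place were counted.

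Per transcript length, Ifi27 was the most abundant member in 18 of 18 livers and Ifi27l2b the least abundant in 18 of 18. Ifi27 averaged 44.0 ± 7.5 RPKM (reads per kilobase of transcript, scaled to library size, as deposited) in Dp16-2xIFNRs, 46.8 ± 9.58 in Dp16 and 83.9 ± 19.6 in wild-type livers (SD, n = 6 each). Ifi27l2a averaged 15.7 ± 5.56 RPKM in Dp16-2xIFNRs, 15.9 ± 11.9 in Dp16 and 16.5 ± 10.6 in wild-type livers. Ifi27l2b averaged 4.75 ± 2.09 RPKM in Dp16-2xIFNRs, 5.66 ± 2.72 in Dp16 and 7.0 ± 3.8 in wild-type livers. By mean RPKM over the 18 livers, the genes ranked 1022, 2571 and 4820 among the 15208 tested. The deposited values imply a length of 1025 bases for Ifi27, and 463 and 1093 bases for the other members, equal to M21. For Ifi27, all exons of M21 cover 1467 bases and those of its protein-coding transcripts 1029. The deposited tables are named after a later GENCODE release than M21, and the source of the length difference was not tested. At 1467 bases, the mean of Ifi27 over the 18 livers would be 40.7 RPKM in place of 58.3, still above the mean of 16.0 for Ifi27l2a.

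Ifi27 was on average lower in both carrier genotypes than in wild-type livers, by nearly the same amount. Its level was 35.4, 46.5 and 59.8 CPM (lowest, median and highest of 6 livers) in Dp16-2xIFNRs, 30.8, 42.1 and 80.1 CPM in Dp16 and 48.8, 83.6 and 116 CPM in wild-type livers. Every carrier liver, 6 of 6 in each genotype, lay below the wild-type mean of 87.1 CPM, and 4 of 6 in each lay below the lowest wild-type liver, wild-type 4. The groups overlapped through that liver, through Dp16 2 and 4, and through Dp16-2xIFNRs 2 and 3. Mean levels were 47.1 ± 7.91 CPM in Dp16-2xIFNRs, 47.9 ± 18.1 in Dp16 and 87.1 ± 26.0 in wild-type livers, that is 54.1% and 55.0% of wild-type. The log2 fold change was -0.88 (SE 0.225) for Dp16-2xIFNRs against wild-type and -0.88 (SE 0.225) for Dp16 against wild-type; these comparisons share the wild-type livers. Dp16-2xIFNRs against Dp16 stood at 0.00419 (SE 0.224), a difference between the carrier genotypes well within its standard error. Between 1572 and 5644 reads per library stand behind these values.

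In the 34 other settings tried, among them each liver left out in turn, each sex alone and RPKM in place of counts, the log2 fold change of Ifi27 stayed between -1.0 and -0.716 for Dp16-2xIFNRs against wild-type and between -1.08 and -0.695 for Dp16 against wild-type. In males, the values were 35.4, 59.8 and 44.6 CPM in Dp16-2xIFNRs livers, 56.6, 35.5 and 80.1 in Dp16 livers and 74.9, 90.0 and 115 in wild-type livers. In females, they were 49.8, 46.7 and 46.3 CPM in Dp16-2xIFNRs livers, 39.6, 30.8 and 44.6 in Dp16 livers and 77.1, 48.8 and 116 in wild-type livers. Among males, Dp16-2xIFNRs did not overlap wild-type and Dp16 did so through Dp16 4. Among females, Dp16 did not overlap wild-type and Dp16-2xIFNRs did so through a single liver. The share of all genes that separate with 3 livers against 3 was not counted, so no result is read from this. The summed level of monocyte and neutrophil markers, 9 of 9 tested, had medians of 28.6 CPM in Dp16-2xIFNRs, 15.1 in Dp16 and 16.6 in wild-type livers, with ranges of 18.4 to 32.2, 13.3 to 44.0 and 7.41 to 27.5. That of B cell and plasma cell markers, 6 of 6 tested, had medians of 26.7 CPM in Dp16-2xIFNRs, 13.1 in Dp16 and 6.7 in wild-type livers, with ranges of 15.2 to 56.1, 4.83 to 37.1 and 2.49 to 20.7. Of these 6 genes, 6 had a positive log2 fold change in Dp16-2xIFNRs against wild-type (median 0.869) and 4 in Dp16 against wild-type. T and NK cell markers, 10 of 11 tested, had medians of 9.95, 8.6 and 6.58 CPM in the same order of genotypes, with ranges of 8.89 to 11.8, 4.69 to 13.9 and 4.37 to 13.5. Stellate cell markers, 8 of 8 tested and 8 positive in Dp16 against wild-type, summed to 186 to 296 CPM in Dp16-2xIFNRs, 206 to 358 in Dp16 and 148 to 245 in wild-type livers. That of Kupffer cell markers, 10 of 10 tested, had medians of 462, 446 and 463 CPM, in the same order. EdgeR called 0 genes of these 5 lists against wild-type. At an unadjusted p under 0.05 in edgeR, higher in Dp16-2xIFNRs against wild-type were 2 monocyte and neutrophil, 2 B cell, 2 T and NK cell and 1 stellate marker, beside 3.43% of all genes, while 1 Kupffer cell marker was lower, beside 5.23%. Higher in Dp16 against wild-type were 2 monocyte and neutrophil, 1 B cell and 3 stellate markers, beside 2.52% of all genes. DESeq2 called 2 monocyte and neutrophil markers and 1 B cell marker higher in Dp16-2xIFNRs against wild-type, where it called 127 of the 15208 genes. Limma-voom called 0 of these markers. The part of cell composition in the Ifi27 difference was not tested.

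**Figure D1:**
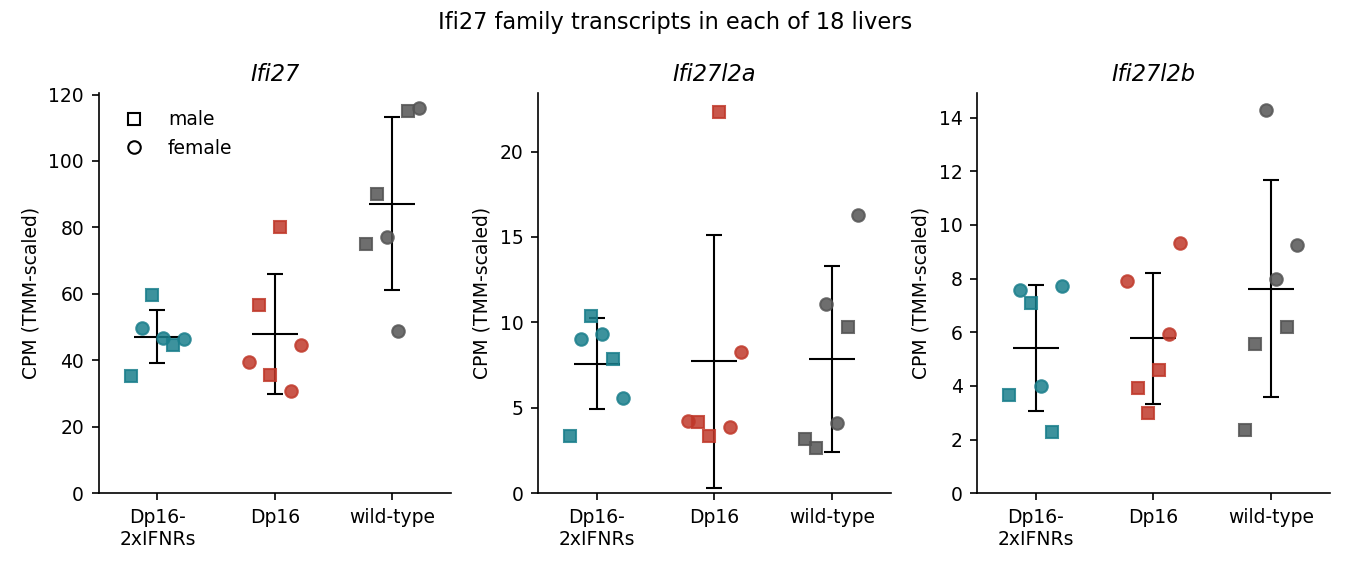
Level of each member in each liver, in CPM after TMM scaling, by genotype; squares are males, circles females, and the line with bars is the mean ± SD of 6 livers. Ifi27 lies below the wild-type mean of 87.1 CPM in all 12 carrier livers, while the genotypes overlap widely for the other members; Dp16 4 stands at 22.3 CPM of Ifi27l2a.

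For Ifi27l2a, each difference between genotypes was smaller than its standard error, and the spread between livers was wide. Its level was 3.36, 8.44 and 10.4 CPM (lowest, median and highest) in Dp16-2xIFNRs, 3.34, 4.21 and 22.3 in Dp16 and 2.63, 6.92 and 16.3 in wild-type livers. The ranges of the 3 genotypes lay over each other, and the coefficient of variation was 34.9% in Dp16-2xIFNRs, 95.7% in Dp16 and 69.4% in wild-type livers. The log2 fold change was -0.034 (SE 0.509) for Dp16-2xIFNRs against wild-type, 0.00235 (SE 0.519) for Dp16 against wild-type and -0.036 (SE 0.51) for Dp16-2xIFNRs against Dp16. Without Dp16 4, Dp16 against wild-type stood at -0.72 (SE 0.396) and Dp16-2xIFNRs against Dp16 at 0.755 (SE 0.4). The sign also differed between the sexes: Dp16 against wild-type stood at 0.94 (SE 0.756) in males alone and -0.945 (SE 0.452) in females alone.

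Ifi27l2b lay lower in carriers on average, by 1 to 2 SE over all 18 livers. Its level was 2.29, 5.55 and 7.74 CPM (lowest, median and highest) in Dp16-2xIFNRs, 3.0, 5.26 and 9.32 in Dp16 and 2.36, 7.1 and 14.3 in wild-type livers. The log2 fold change was -0.41 (SE 0.293) for Dp16-2xIFNRs against wild-type, -0.38 (SE 0.291) for Dp16 against wild-type and -0.031 (SE 0.293) for Dp16-2xIFNRs against Dp16. Single livers moved these values: Dp16-2xIFNRs against wild-type stood at -0.682 (SE 0.27) without Dp16-2xIFNRs 3, at -0.267 (SE 0.293) without Dp16-2xIFNRs 4 and at -0.254 (SE 0.296) without wild-type 3, and Dp16 against wild-type stood at -0.21 (SE 0.297) without wild-type 3. The genotypes overlapped, with 1 Dp16-2xIFNRs liver and no Dp16 liver below the wild-type range. Over the family, summed RPKM was 64.5 ± 13.7 in Dp16-2xIFNRs, 68.3 ± 19.9 in Dp16 and 107 ± 27.2 in wild-type livers (SD, n = 6). Ifi27 made up 68.9 ± 4.29% of that sum in Dp16-2xIFNRs, 70.0 ± 8.42% in Dp16 and 78.8 ± 9.09% in wild-type livers. Ifi27l2a made up 23.8 ± 5.16%, 21.3 ± 8.71% and 14.5 ± 6.68% in the same genotypes.

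**Figure D2:**
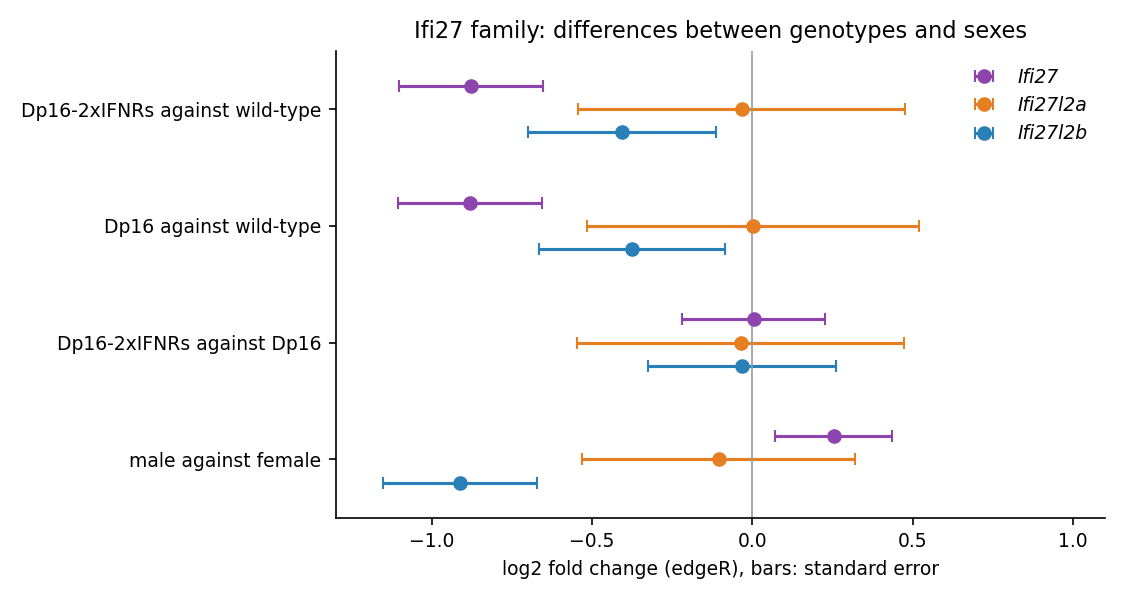
Log2 fold change of each member with its standard error (bars) from the edgeR fit over 18 libraries, for the 3 genotype comparisons and for males against females. Ifi27 stands at -0.88 in both carrier genotypes against wild-type and at 0.00419 between them; Ifi27l2b stands at -0.91 in males against females.

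Between the sexes it was Ifi27l2b that differed. It was lower in males, at 2.29, 3.92 and 7.1 CPM (lowest, median and highest of 9), against 4.01, 7.92 and 14.3 CPM in 9 females. All 9 males lay below the female mean of 8.23 CPM, and 5 lay below the lowest female. The means were 4.3 ± 1.7 CPM in males and 8.23 ± 2.81 CPM in females (SD, n = 9), with a log2 fold change of -0.91 (SE 0.24, 0.532-fold, adjusted p = 0.0254, edgeR). It was the 1 called member of 3 at an adjusted p under 0.05 (edgeR). Of all 15208 genes, 6.56% were called between the sexes, with 3.16% lower in males. Ifi27, at 65.8 ± 26.8 CPM in males and 55.6 ± 26.0 in females, had a log2 fold change of 0.25 (SE 0.183, adjusted p = 0.495, edgeR). Ifi27l2a, at 7.44 ± 6.34 CPM in males and 7.98 ± 4.08 in females, stood at -0.10 (SE 0.426, adjusted p = 0.931, edgeR).

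The direction of the Ifi27l2b difference was the same in each genotype. In Dp16-2xIFNRs livers, Ifi27l2b measured 3.67, 7.1 and 2.29 CPM in males against 7.57, 4.01 and 7.74 CPM in females, with overlap. In Dp16 livers it measured 3.92, 3.0 and 4.61 CPM in males against 7.92, 5.92 and 9.32 CPM in females, without overlap. In wild-type livers it measured 2.36, 5.56 and 6.2 CPM in males against 14.3, 8.0 and 9.24 CPM in females, again without overlap. How many of all genes separate with 3 livers against 3 was not counted, so the separation is a description only. The call rests on few libraries: without wild-type 3, the liver with the highest value (14.3 CPM), the adjusted p was 0.0536, and without Dp16 6 it was 0.0522 (edgeR, log2 fold changes -0.82 and -0.86). In the 33 other settings the log2 fold change ran from -1.17 to -0.573, and 27 of them kept the call. The edgeR fit treated the livers as independent, although 11 share a description number with a liver of the same sex and another genotype. With that number as a random block, the log2 fold change was -0.945 (adjusted p = 0.0492, limma-voom). Markers of several cell types also leaned lower in males by log2 fold change. Stellate cell markers (8 of 8 tested, 8 with a negative log2 fold change) summed to 148 to 293 CPM in males and 220 to 358 CPM in females. Called lower were 0 by edgeR, 2 by limma-voom and 3 by DESeq2, which called 1536 of the 15208 genes between the sexes. At an unadjusted p under 0.05 in edgeR, 4 were lower, beside 9.44% of all genes lower at that p. Kupffer cell markers (10 of 10 tested, 10 negative; called were 0 by edgeR, DESeq2 and limma-voom, with 1 at an unadjusted p under 0.05 in edgeR) summed to 374 to 549 CPM in males and 367 to 768 CPM in females. B cell and plasma cell markers (6 of 6 tested, 6 negative, median -0.709, 1 lower at an unadjusted p under 0.05 in edgeR) summed to 2.49 to 37.9 CPM in males and 4.83 to 56.1 CPM in females. The median of this sum was 15.2 CPM in males and 15.2 CPM in females. Monocyte and neutrophil markers (9 of 9 tested, 7 negative, median -0.659, 2 lower at that p and 1 called lower by limma-voom) summed to 7.41 to 44.0 CPM in males and 13.9 to 32.2 CPM in females. Endothelial cell markers (10 of 10 tested, 9 negative, median -0.291, 3 lower at that p and 1 called lower by DESeq2) summed to 232 to 373 CPM in males and 275 to 454 CPM in females. Negative were also 7 of 10 T and NK cell markers, 4 of 5 cholangiocyte markers and 1 of 3 plasmacytoid dendritic cell markers. The T and NK cell sum had a median of 9.59 CPM in males and 8.89 in females. Of 8 hepatocyte markers, 4 were negative (median 0.0162). EdgeR called 1 of them lower, beside 3.16% of all genes, limma-voom 1 lower, and DESeq2 1 lower and 1 higher. Their sum had a median of 96100 CPM in males and 120000 CPM in females. Apart from B cell and T and NK cell markers, every cell type list had a lower median sum in males. The part of these cell types in the difference was not tested.

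**Figure D3:**
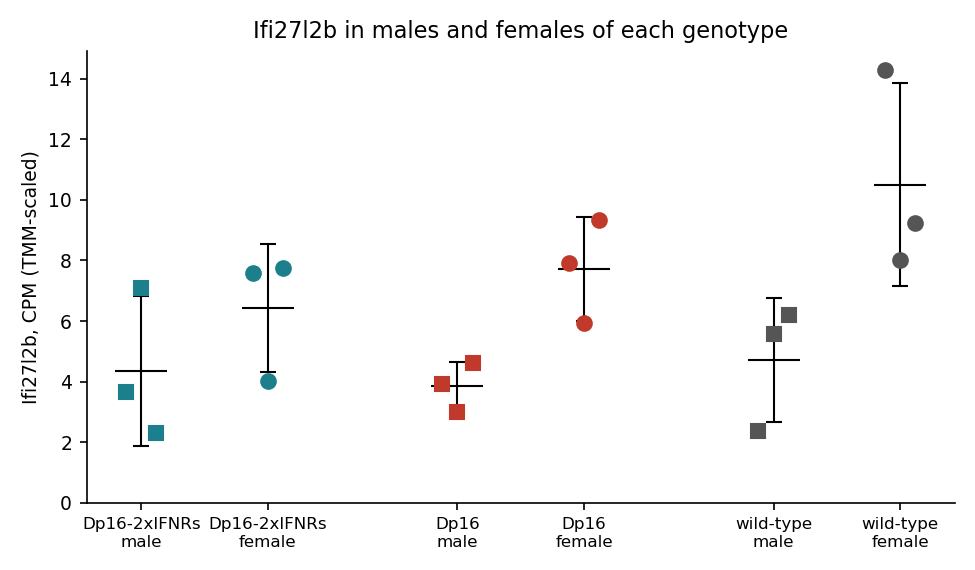
Ifi27l2b in CPM after TMM scaling in the 3 males and 3 females of each genotype, with mean ± SD as line and bars. Males and females do not overlap in Dp16 and wild-type livers and overlap in Dp16-2xIFNRs livers, where 1 male stands at 7.1 and 1 female at 4.01 CPM.

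Whether a genotype difference itself depended on sex was tested with an interaction term. For Dp16 against wild-type, the male minus the female log2 fold change was 0.37 (SE 0.447) for Ifi27, 1.88 (SE 0.974) for Ifi27l2a and 0.15 (SE 0.597) for Ifi27l2b, with edgeR adjusted p of 0.73, 0.582 and 0.928. The Ifi27l2a value was 0.48 without Dp16 4, a male. For Dp16-2xIFNRs against wild-type, the values were -0.24 (SE 0.447), 0.88 (SE 0.968) and 0.60 (SE 0.597), each with an edgeR adjusted p of 1. No gene of the 15208 (0%) was called by edgeR in either interaction, with 1198 (7.88%) and 340 (2.24%) genes at an unadjusted p under 0.05. DESeq2 called 52 and 10 genes and limma-voom 1 and 1, none of them a member.

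The nearest tested gene on each side of the family stood closer to wild-type than Ifi27 did, a contrast that was not tested. Of the 6 nearest protein-coding genes on each side, 7 of 12 were tested. Ddx24, an RNA helicase and the nearest gene below at 8381 bases from the cluster, stood at -0.15 (SE 0.169) in Dp16-2xIFNRs and 0.010 (SE 0.17) in Dp16 livers against wild-type. Ppp4r4, a phosphatase regulatory subunit and the nearest above at 75060 bases, stood at 0.078 (SE 0.366) and 0.014 (SE 0.363) in the same comparisons. Over all genes tested, edgeR called 0.0986% in Dp16-2xIFNRs against wild-type, 0.0395% in Dp16 against wild-type and 0% between the carriers, with 9.32% of genes at an unadjusted p under 0.05 in the last and 7 genes called there by DESeq2. The lowest adjusted p among the 7 neighbours was 0.713, 0.999 and 0.532 in these comparisons (edgeR). Between the sexes, where 6.56% of all genes were called and 3.16% were lower in males, 1 of 7 was called, Serpina6, which encodes corticosteroid-binding globulin: it measured 199 ± 38.7 CPM in males and 566 ± 203 CPM in females (SD, n = 9, log2 fold change -1.49, SE 0.204, adjusted p = 5.32e-05, edgeR). Otub2, a deubiquitinase, stood at -0.85 (SE 0.267, adjusted p = 0.0643, edgeR). These genes and Ifi27l2b are not independent samples of the region, and no test was made across them.

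**Figure D4:**
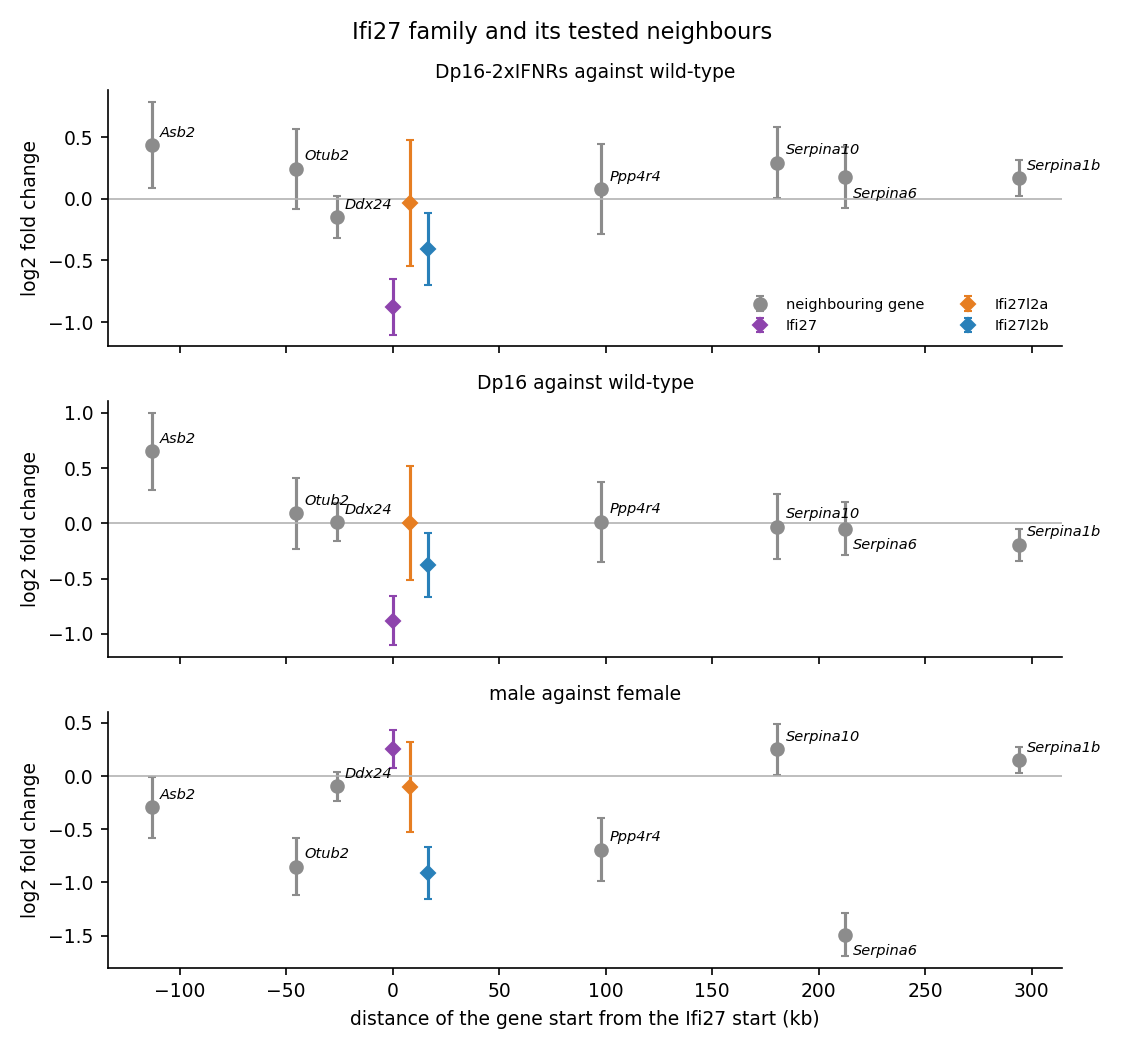
Log2 fold change with standard error (bars) of the 3 members (diamonds) and of the 7 tested neighbouring genes (grey), by distance of the gene start from the start of Ifi27 in kb. Against wild-type, Ifi27 stands at -0.88 in both carrier genotypes while Ddx24 stands at -0.15 and 0.010; between the sexes, Serpina6 and Ifi27l2b lie below 0.

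The rest of the interferon pathway was read from lists of ligands, receptors, transducers, inhibitors and target genes. None of the 7 listed interferon ligand genes passed the filter, and 6 of them had no read in any library. Ifnar1 measured 23.1 ± 3.15 CPM in Dp16-2xIFNRs, 33.6 ± 7.05 in Dp16 and 22.3 ± 2.32 in wild-type livers (SD, n = 6), and its partner Ifnar2 measured 68.2 ± 6.95, 88.1 ± 12.7 and 61.5 ± 5.06 CPM in the same genotypes. Of 5 tested receptor genes, 5 had a positive log2 fold change in Dp16 against wild-type, with a median of 0.52 beside 0.010 over all genes. In Dp16-2xIFNRs against wild-type, 4 of 5 were positive, with a median of 0.15 beside -0.025. EdgeR called 0 of the 5 receptors in each genotype comparison, with 3 higher at an unadjusted p under 0.05 in Dp16 against wild-type, beside 2.52% of all genes, 0 in Dp16-2xIFNRs against wild-type, and 4 lower in Dp16-2xIFNRs against Dp16, beside 7.11% of all genes. DESeq2 called 2 higher in Dp16 against wild-type, where it called 72 of the 15208 genes, and limma-voom called 0. Il10rb, a subunit shared by the receptors of interferon lambda and interleukin 10, measured 7.09 ± 1.89 CPM in Dp16-2xIFNRs, 10.5 ± 2.85 in Dp16 and 6.36 ± 1.58 in wild-type livers. Beside these receptor levels, Ifi27 averaged 47.1 CPM in Dp16-2xIFNRs and 47.9 CPM in Dp16 livers.

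Interferon-stimulated genes outside the family leaned slightly lower in carriers. Of 46 listed and tested genes, 32 had a negative log2 fold change in Dp16-2xIFNRs against wild-type, with a median of -0.16 beside -0.025 over all genes. In Dp16 against wild-type 28 were negative, with a median of -0.099 beside 0.010. EdgeR called 0 of 46 in each genotype comparison. At an unadjusted p under 0.05 it had 10 lower in Dp16-2xIFNRs against wild-type, where 5.23% of all genes were. It had 1 higher and 2 lower in Dp16 against wild-type, where 2.52% and 2.35% of all genes were. It had 6 lower in Dp16-2xIFNRs against Dp16, where 7.11% were. DESeq2 called 1 lower in Dp16-2xIFNRs against wild-type, where it called 127 of the 15208 genes, and 0 in the others. Limma-voom called 0 in each. The genes with the smallest p were Ifih1, a sensor of viral RNA, and Samd9l in Dp16-2xIFNRs against wild-type, at -0.62 (SE 0.159, adjusted p = 0.183, edgeR) and -0.84 (SE 0.242, adjusted p = 0.264, edgeR). In Dp16 against wild-type they were Rtp4 at -0.43 (SE 0.165, adjusted p = 0.831, edgeR) and Ifitm3, which blocks virus entry, at -0.36 (SE 0.154, adjusted p = 0.936, edgeR). These genes were picked by p, not by the size of their change. The value of Samd9l was close to the -0.88 of Ifi27 in Dp16-2xIFNRs, well within its standard error. Ifih1, Rtp4 and Ifitm3 stood nearer to 0 than Ifi27, a difference that was not tested.

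Between the sexes, 34 of the 46 interferon-stimulated genes had a negative log2 fold change, with a median of -0.25 beside -0.021 over all genes, 3 were called lower in males and 0 higher. In limma-voom with the description number of each liver as a random block, at an estimated correlation of 0.407, 1 of the 46 was called lower. Oasl2, of the oligoadenylate synthetase family, measured 3.71 ± 0.969 CPM in males and 6.99 ± 1.63 in females (SD, n = 9, log2 fold change -0.90, SE 0.161, adjusted p = 0.00104, edgeR). Samd9l, a restriction factor for viruses, measured 7.74 ± 3.54 CPM in males and 12.2 ± 3.44 in females (-0.71, SE 0.197, adjusted p = 0.0346, edgeR). Ifi44 measured 3.57 ± 1.36 CPM in males and 5.86 ± 1.07 in females (-0.74, SE 0.212, adjusted p = 0.0403, edgeR). The 3 of 46 called lower stood beside 3.16% of all genes called lower in males, and 16 of 46 were lower with 0 higher at an unadjusted p under 0.05, beside 9.44% of all genes lower at that p. Ifi27l2b lay on the same side as these genes and Ifi27 on the other. DESeq2, which called 1536 of the 15208 genes between the sexes, called 4 of the 46 lower in males, and limma-voom called 3. The mean log2 CPM of the 46 genes was 3.34 ± 0.117 in males and 3.62 ± 0.188 in females (SD, n = 9).

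The interferon-stimulated list shares some genes, among them Irf9 and Usp18, with the lists of transducers and inhibitors. Of 9 transducers, 9 had a negative log2 fold change in Dp16-2xIFNRs and 5 in Dp16 against wild-type; Irf2, a repressor of interferon responses, stood at -0.50 (SE 0.184, adjusted p = 0.471, edgeR) in Dp16-2xIFNRs. Of 6 inhibitors, 3 had a negative log2 fold change in Dp16-2xIFNRs and 1 in Dp16 against wild-type. Usp18, which dampens signalling at Ifnar2, stood at -0.38 (SE 0.175, adjusted p = 0.567, edgeR) in Dp16-2xIFNRs and -0.30 (SE 0.175, adjusted p = 0.999, edgeR) in Dp16. Of the 3 genes whose human products were linked to IFI27, Nr4a1 averaged 6.83 ± 5.68 CPM in Dp16-2xIFNRs, 5.01 ± 4.92 in Dp16 and 6.16 ± 6.3 in wild-type livers. In the same genotypes Skp2 averaged 0.987 ± 0.658, 0.72 ± 0.657 and 0.92 ± 0.518 CPM, and Xpo1 averaged 16.9 ± 2.59, 17.8 ± 3.96 and 19.1 ± 3.7 CPM. EdgeR, DESeq2 and limma-voom called 0 genes of these 3 lists in any genotype comparison. At an unadjusted p under 0.05 in edgeR, 3 of 9 transducers and 1 of 6 inhibitors were lower in Dp16-2xIFNRs against wild-type, beside 5.23% of all genes. In Dp16-2xIFNRs against Dp16, 1 transducer and 1 inhibitor were lower, beside 7.11% of all genes, and 0 passed in Dp16 against wild-type.

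Across the 18 livers, 9 relations were computed on log2 CPM: among the members, and of each with Ifnar1 and with the mean of the 46 interferon-stimulated genes. Before subtraction of genotype effects, these values carry the genotype differences on which the members were chosen, so they are given without a test. Ifi27 and Ifi27l2a had a Pearson r of 0.46 (Spearman rho 0.461), and 0.611 without the 2 livers farthest in Ifi27l2a. Ifi27 and Ifi27l2b had r = 0.223 (rho 0.236). Ifi27l2a and Ifi27l2b had r = 0.36 (rho 0.457). Once genotype and sex effects were subtracted, Ifi27 and Ifi27l2a had r = 0.811 (rho 0.81, permutation p = 3e-05 and 0.00012, adjusted 0.00027 and 0.00108), and 0.675 without the 2 livers farthest in Ifi27l2a. Within genotypes r was 0.869 in Dp16-2xIFNRs, 0.815 in Dp16 and 0.532 in wild-type livers, 6 livers each; it was 0.326 in males and 0.831 in females. In the sets of livers that share the opening digits of their description number, whose meaning the labels leave unstated, r was -0.00867 over 11 livers and 0.773 over 7, so the relation on log2 CPM before subtraction did not hold within the larger set. Of the other genes tested, 10.9% were at least as closely related to Ifi27 after the subtraction as Ifi27l2a was. Permutations after subtraction, here and below, took the residuals as exchangeable and the livers as independent. Fitted effects and shared description numbers can make such p-values too small.

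Ifi27 ran opposite to Ifnar1, with r = -0.638 (rho -0.633) over the 18 livers, and -0.527 without the 2 livers farthest in Ifnar1. This pooled value carries the genotype differences of both genes, on which the members were chosen, so it is given without a test; 2.62% of the other genes tested lay at least as far from 0 in their relation to Ifi27. Within genotypes r was -0.711 in Dp16-2xIFNRs, -0.751 in Dp16 and -0.782 in wild-type livers, negative in each, with 6 livers a genotype. After subtraction of genotype and sex effects r was -0.685 (rho -0.686, permutation p = 0.00174 and 0.0022, adjusted 0.00783 and 0.0099), where 28.6% of the other genes tested lay at least as far from 0. The permutations treated the livers as independent, although 11 of 18 share a description number with a liver of another genotype. Before subtraction, Ifi27l2a and Ifnar1 had r = -0.396 (rho -0.389), and Ifi27l2b and Ifnar1 had r = -0.176 (rho -0.195), again without a test. Levels in CPM are divided by the TMM factor itself. Over the 18 livers the log2 of that factor had, on log2 CPM, r = -0.526 with Ifi27, -0.616 with Ifi27l2a, 0.172 with Ifi27l2b and 0.545 with Ifnar1 (permutation p = 0.0229, 0.00497, 0.5 and 0.0194, adjusted 0.0459, 0.0199, 0.5 and 0.0459 over 8 relations). Spearman's rho was -0.507, -0.604, 0.222 and 0.422 (permutation p = 0.0325, 0.00975, 0.374 and 0.0822, adjusted 0.0719, 0.039, 0.374 and 0.13). Without the 2 livers with the most extreme factors, r was -0.347, -0.513, 0.193 and 0.543. On log2(RPKM + 0.1), which does not use the factor, r was -0.29, -0.489, 0.365 and 0.767 for these genes in the same order (permutation p = 0.249, 0.0361, 0.136 and 0.00021, adjusted 0.285, 0.0578, 0.181 and 0.00168). There rho was -0.325, -0.501, 0.404 and 0.709 (permutation p = 0.186, 0.0359, 0.0978 and 0.0013, adjusted 0.212, 0.0719, 0.13 and 0.0104), and r was -0.188, -0.42, 0.305 and 0.712 without those 2 livers. By Pearson r over the 18 livers, the relation with the factor thus passed the threshold in both units for Ifnar1, on CPM alone for Ifi27 and Ifi27l2a, and in neither for Ifi27l2b. By Spearman's rho it passed on CPM for Ifi27l2a alone and on RPKM for Ifnar1 alone. Without the 2 livers, r passed for Ifnar1 on RPKM alone (adjusted permutation p = 0.0118). On CPM the adjusted permutation p was then 0.298 for Ifi27, 0.116 for Ifi27l2a and 0.114 for Ifnar1. The part of the factor in the relations was not tested. The mean of the interferon-stimulated genes had r = -0.171 with Ifi27 (rho -0.0691) before subtraction. It had r = -0.17 with Ifi27l2a (rho -0.11) and r = 0.489 with Ifi27l2b (rho 0.488), likewise without a test. After subtraction of genotype and sex effects, its r was -0.53 with Ifi27, -0.415 with Ifi27l2a and -0.158 with Ifi27l2b (adjusted permutation p = 0.0453, 0.112 and 0.531). With Ifi27, rho was then -0.505 (adjusted permutation p = 0.0542). Without the 2 livers farthest in that mean, r with Ifi27 was -0.442 (adjusted permutation p = 0.152).

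**Figure D5:**
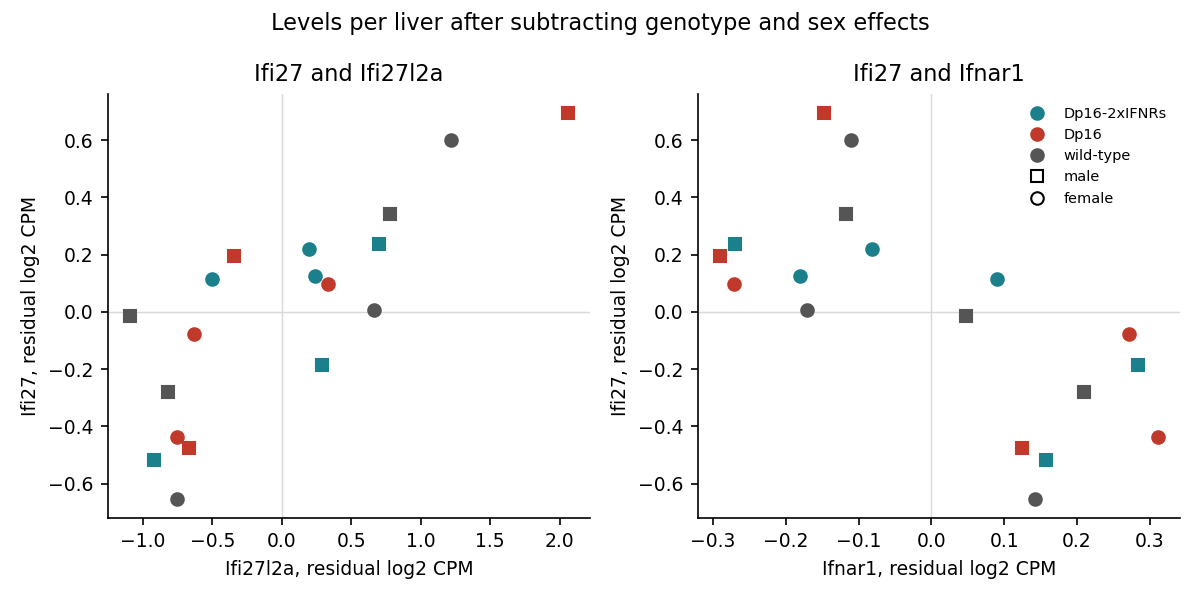
Ifi27 against Ifi27l2a (left) and against Ifnar1 (right) in 18 livers, as log2 CPM after subtraction of genotype and sex effects; colours are genotypes, squares males and circles females. Livers high in Ifi27 are high in Ifi27l2a (r = 0.811) and low in Ifnar1 (r = -0.685), and Dp16 and wild-type livers stand at both ends.

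The genes whose levels ran most like each member were taken by Pearson r of log2 CPM over the 18 livers, among 10001 named genes of sufficient level. For Ifi27 they were Fbxo36, an F-box protein (r = 0.825), Adtrp (0.816), the hepatocyte uptake transporter Slco1b2 (0.814), Hnf4aos, transcribed antisense to Hnf4a (0.809), and Mfsd3 (0.808). Fbxo36 stood at -0.385 in Dp16-2xIFNRs and -0.65 in Dp16 against wild-type, Slco1b2 at -0.38 and -0.41, and Hnf4aos at -0.73 and -1.11; the value of an antisense gene depends on the strand setting of the counting. By this pooled r, which carries the genotype differences, Ifi27l2a ranked 1425 and Ifi27l2b 3248 in likeness to Ifi27. After subtraction of genotype and sex effects, r with Ifi27 was 0.811 for Ifi27l2a and 0.434 for Ifi27l2b. It was then 0.905 for Fbxo36, 0.808 for Adtrp, 0.675 for Slco1b2, 0.759 for Hnf4aos and 0.769 for Mfsd3.

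For Ifi27l2a the genes were Cetn3, a centrin (r = 0.926), Plac8, one of the monocyte and neutrophil markers (0.908), Sat1, which acetylates polyamines (0.907), Nsa2, a ribosome assembly factor (0.905), and Yeats4, a chromatin reader (0.905). For Ifi27l2b they were Tnfrsf19, a receptor of the tumour necrosis factor family (0.909), Rdh16, a retinol dehydrogenase (0.887), Rtn4, which shapes the endoplasmic reticulum (0.857), cyclin D1 (Ccnd1, 0.831) and Mfge8, which helps phagocytes take up dying cells (0.831). Of the 5 genes most like Ifi27l2b, 4 were called lower in males (edgeR), beside 3.16% of all genes. Their log2 fold changes were -0.95 (SE 0.204) for Tnfrsf19, -1.02 (SE 0.201) for Rdh16, -1.16 (SE 0.135) for Rtn4 and -1.98 (SE 0.258) for Ccnd1. Mfge8 stood at -0.45 (SE 0.14, adjusted p = 0.0624, edgeR). For the 5 genes most like Ifi27 and the 5 most like Ifi27l2a, the lowest adjusted p between the sexes was 0.232 and 0.913 (edgeR). Because these genes were ranked by likeness over the same livers, with genotype and sex differences left in, their own differences are given as descriptions. After subtraction of genotype and sex effects, r with Ifi27l2b was 0.818 for Tnfrsf19, 0.746 for Rdh16 and 0.776 for Rtn4. It was then 0.614 for Ccnd1 and 0.771 for Mfge8.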

How the data were processed

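Poly(A) RNA from 18 mouse livers was sequenced with a strand-specific kit as paired reads, per the labels' protocols. The submitters' processing notes name FastQC 0.11.5, HISAT2 2.1.0, SAMtools 1.5, HTSeq 0.6.1 and GRCm38, with no role or order. The deposited tables hold raw counts per gene and RPKM values; the authors' RPKM equal count per kilobase, scaled to the column total of the count table, by comparison of the deposited tables. Samples were grouped by genotype from their titles.

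Counts were filtered with filterByExpr, scaled by TMM and fitted with edgeR 4.0.16 (quasi-likelihood test, genotype and sex terms, 18 libraries, Benjamini-Hochberg adjustment over 15208 genes, threshold 0.05, median biological coefficient of variation 0.351), after the fit had been tested on simulated data. Log2 CPM used a prior count of 2. Relations used 100000 permutations. R 4.3.3, limma 3.58.1 and DESeq2 1.42.0 served the alternatives: other normalization, filters, tools, covariates, blocks, RPKM, and each library left out in turn. Sequence windows came from GENCODE M21 transcripts.

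The members and gene lists were chosen with earlier results of these data known. Named genes were the members, the 5 genes most like each by Pearson r, the genes called in each list (otherwise the 2 with the smallest p) and the nearest neighbours. Serpina6, Otub2, Il10rb and Skp2 levels were added after their values were seen. One gene that the rule names is not reported here.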

Additional observations from a re-analysis of the deposited data

Results flagged for a closer look

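Ifi27l2a in the liver of Dp16 4, a male aged 17.1 weeks, measured 22.3 CPM, against 3.34 to 8.29 CPM in the other 5 Dp16 livers. It lay farther from its nearest neighbour than Dixon's 95% limit allows, among Dp16 livers and again among the 9 male livers, where the others measured 2.63 to 10.4 CPM. These are 22.3 CPM from the same library, so they are not separate findings; 15 groups were tested, and chance marks about 1 in 20. Ifi27 was also highest of the Dp16 livers there, at 80.1 CPM, while Ifi27l2b measured 4.61 CPM. The same library had the lowest TMM factor (0.8026) and the highest summed level of monocyte and neutrophil markers (44.0 CPM), T and NK cell markers (13.9 CPM) and plasmacytoid dendritic cell markers (182 CPM, a list that includes the interferon-stimulated gene Bst2) of the 18. The part of these in the Ifi27l2a value was not tested.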

How the results depend on the processing

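The lower Ifi27 mean of both carrier genotypes kept its direction in all 34 alternatives. In one-sex or one-genotype fits and other changes, several differences took the other sign. In males and females alone, Ifi27 stood at -0.305 and 0.311 for Dp16-2xIFNRs against Dp16, and Ifi27l2a at -0.462 and 0.539 there, at 0.94 and -0.945 for Dp16 against wild-type and at 0.478 and -0.406 for Dp16-2xIFNRs against wild-type. The last 2 of these and Ifi27l2a between the carriers lie near 0 over all livers; Ifi27l2b between the carriers was 0.174 in males. For Ifi27 between the sexes this was -0.0373 in Dp16-2xIFNRs livers alone. For Ifi27l2a between the sexes it was 0.0602 with the replicate block and 0.879 in Dp16 livers alone, and leaving out 1 library gave -0.572 to 0.0834. Ifi27l2b between the sexes lost its call with the replicate block (-0.881, adjusted p = 0.0566, edgeR) and in wild-type, Dp16 or Dp16-2xIFNRs livers alone (-1.17, -0.99 and -0.573), where fewer libraries entered; leaving out 1 library gave -1.09 to -0.803. The Dp16 interaction of Ifi27 was -0.0435 and -0.0436 with limma on log2(RPKM + 0.1) and log2(RPKM + 1), and -0.0851 without Dp16 4 and 5. That of Ifi27l2b was -0.0578 and -0.0364 with RPKM, -0.624 with the replicate block and -0.161 without Dp16 4 and 5, with -0.171 to 0.398 on leaving out 1 library. The Dp16-2xIFNRs interaction of Ifi27 ran from -0.602 to 0.0167 on leaving out 1 library. The cause was not tested.

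Counts of genes called moved more. For Dp16 against wild-type (6 genes) they were 72 with DESeq2, 12 with limma-voom, 3 with no sex term, 16 with the description number as a random block, 1 with only the 2 genotypes compared, 0 in males, 0 in females, 12 and 12 with RPKM, and 1 without Dp16 4 and 5; leaving out 1 library gave 1 to 9. For Dp16-2xIFNRs against wild-type (15 genes) they were 127 with DESeq2, 7 with no sex term, 23 with the description prefix as a term, 78 with the random block, 43 with only the 2 genotypes compared, 0 in males, 0 in females, 45 and 23 with RPKM (pseudocount 0.1 and 1), and 64 without Dp16 4 and 5; leaving out 1 library gave 4 to 48, the highest without Dp16 4. For Dp16-2xIFNRs against Dp16 (0 genes) DESeq2 gave 7 and the random block 2. Between the sexes (998 genes) DESeq2 gave 1536, and wild-type, Dp16 and Dp16-2xIFNRs livers alone gave 82, 63 and 291. Interferon-stimulated genes called lower in males (3) were 1 with the random block, 1, 0 and 1 in those single genotypes, 7 and 9 with RPKM, and 1 to 5 on leaving out 1 library. In the Dp16 interaction (0 genes) no filter gave 1, DESeq2 52, limma-voom 1 and the random block 1, with 0 to 1 on leaving out 1 library. In the Dp16-2xIFNRs interaction (0 genes) no filter gave 1, DESeq2 10, limma-voom 1, the random block 1 and log2(RPKM + 0.1) 1.

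Relations across livers depended on the setting. Pearson r of Ifi27 with Ifi27l2a was 0.811 after subtracting genotype and sex effects, 0.675 after that without the 2 farthest livers, 0.7 with RPKM after it, 0.831 in females and -0.00867 in the 11 livers of the larger description set. Ifi27 with Ifi27l2b and Ifi27l2a with Ifi27l2b had r of -0.0151 and -0.167 in the 7 livers of the smaller set. With the interferon-stimulated mean, Ifi27 had r of -0.53 after subtraction, -0.626 with RPKM after it, 0.246 in males and 0.241 in the larger set. Ifi27l2a had 0.00857 without the 2 farthest livers, 0.136 in the larger set and -0.642 with RPKM after subtraction. With RPKM after subtraction, the adjusted permutation p was 0.0101 for Ifi27 and 0.0097 for Ifi27l2a. On CPM after subtraction it was 0.0453 and 0.112. Ifi27l2b had -0.158 after subtraction, -0.161 in males, -0.159 after subtraction without the 2 farthest and -0.0363 with RPKM after subtraction. With Ifnar1, Ifi27 had r of -0.548 in males, -0.708 in females, -0.524 with RPKM and -0.527 without the 2 farthest livers. In the larger and smaller sets it was -0.577 and -0.712. Genotype differences remain in these settings, so they are given without a test. Ifi27l2a with Ifnar1 had an adjusted permutation p under 0.05 after subtraction of genotype and sex effects (-0.603). This also held without the 2 farthest livers (-0.663) or with RPKM (-0.731) after that. Before subtraction these settings gave -0.304 and -0.425. After subtraction on CPM, 40.8% of the other genes tested lay at least as far from 0 in their relation to Ifi27l2a. Ifi27l2b with Ifnar1 passed that threshold after subtraction by Pearson r (-0.546), where 6.36% of the other genes lay at least as far from 0. By rho the adjusted permutation p was 0.0528. With RPKM, r was -0.301 after subtraction (adjusted permutation p = 0.296) and 0.0855 before it.

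Over sample numbers shared between genotypes, 18 same-numbered pairs, 8 of them of 1 sex, correlated at -0.449 to 0.342. Among the 18 libraries, 5 correlated best with their own number. Only genotype means were subtracted here: pairs of 1 sex stood at 0.128 to 0.342 and mixed pairs at -0.449 to -0.0577. Because sex enters these values, they cannot tell whether the sample numbers pair the livers. The number in the sample description is shared by 11 libraries in 7 pairs, each of 1 sex and 2 genotypes. These pairs correlated at -0.0624 to 0.32 after subtraction of genotype and sex effects, 2 of 7 over 0.1, while the consensus correlation within genes was 0.407; with it as a random block Ifi27l2b between the sexes was -0.945 (adjusted p = 0.0492, limma-voom). The settings without Dp16 4 and 5 and the residual settings without the 2 farthest livers or with RPKM were chosen after seeing the data. Ifi27l2b and Ifi27l2a rest on 92 to 744 and 135 to 790 reads per library, and with 3 livers of each sex in each genotype the interactions have standard errors of 0.447 to 0.974.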
